A study of Mus musculus with 42 samples.

Results

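The homeobox genes of the 4 Hox clusters were followed along the mouse colon. All genes whose symbol begins with Hox, followed by the cluster letter a to d and a number, were taken from the 12 deposited expression tables. Of 39 such genes in the GRCm38 annotation, 36 were listed in at least 1 table, among 19206 genes listed in all. Hoxb1, Hoxc12 and Hoxc13 had no row in any table. Of the 36 genes, 29 were listed in at least 1 of the 4 tables of goblet cells and 17 in all 4, 34 in at least 1 of the 4 tables of stromal cells and 21 in all 4, and 22 in at least 1 of the 4 organoid tables and 18 in all 4.

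Hox genes encode homeodomain transcription factors that give cells their position along the body axis. Their order on the chromosome follows the place where they act, so that low-numbered genes act towards the head and genes of groups 9 to 13 act in the hindgut, tail and limbs. The gut tube keeps regional Hox codes in its epithelium and in its mesenchyme, and the genes of group 13 are known for patterning the hindgut. Hox proteins bind DNA together with partners of the Pbx and Meis families, Cdx factors and retinoic acid switch the clusters on, and Polycomb and trithorax proteins keep them off or on.

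The sorted cells came from Gli1-CreERT2 mice, in which Cre is active after tamoxifen in Gli1-expressing stromal cells. GS4 mice also carried Smad4 fl/fl, and GA3 mice also carried Alk3 fl/fl (Alk3 is the product of Bmpr1a, a BMP receptor). Control mice carried Gli1-CreERT2 without a floxed Smad4 or Alk3 allele and received tamoxifen too. Mice used for goblet cells also carried the Muc2-mCherry reporter, and those used for stromal cells the Cre-dependent Rosa26-tdTomato reporter. The mice were of both sexes and 2 to 4 months old. At day 30 after tamoxifen, Muc2-mCherry+ goblet cells (groups GWTM2, GS4M2 and GA3M2 for control, Smad4 and Alk3 mice) and Gli1-tdTomato+ stromal cells (GWTT, GS4T and GA3T) were sorted from proximal and from distal colon, with 2 libraries in each of the 12 groups. Goblet cells are outside the Gli1 lineage, so in them the deletion was in the neighbouring stroma. Wild-type organoids of distal colon were left untreated or received 10 nM of IL1 (IL-1a with IL-1b) or IL17A for 12 or 72 h, with 3 labelled libraries per group. Nothing in the labels ties a library to 1 mouse or to a pool, so p-values measure the spread between these libraries.

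Levels are given as CPM, reads scaled to a common total on the 12171 genes listed in all 12 tables. These genes held 17434653 of 17648682 reads on named genes in the first distal GWTM2 library. In the first distal GWTT library they held 12492617 of 16770475. Stromal CPM is thus raised relative to goblet CPM, compared with scaling to all named genes. Libraries held 14222902 to 23686940 reads, which bounds counting error only. A gene had a row only where its mean exceeded a low level, between 0.191 and 0.536 CPM in the 8 tables of sorted cells, so "not listed" means below about that level and not absent. The summed level of 10 fibroblast markers was 60649 to 82679 CPM in the stromal libraries, and the 2 to 8 of them listed in goblet tables summed to at most 36.1 CPM. The summed level of 8 epithelial markers was 9460 to 15650 CPM in goblet libraries and 21.3 to 2369 CPM in stromal libraries. In bulk libraries, fewer cells of a type and less RNA per cell cannot be told apart. The proximal GS4T and GA3T libraries numbered 2 held 1.89 and 2.66 CPM of Gli1, against at least 50.5 CPM in the other stromal libraries. Smad4 stood at 54.9 to 94.0 CPM in GS4T and at 126 to 146 CPM in GWTT, and Bmpr1a at 141 to 170 CPM in GA3T and at 221 to 250 CPM in GWTT.

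Members named below were tested with limma over all genes of a comparison, on log2(CPM + 0.1) for segments and cell types and on log2(normalised count + 1) for knockout and cytokine comparisons. A gene was called where the Benjamini-Hochberg adjusted p was under 0.05 and the change was at least 1 on the log2 scale. Counts at an unadjusted p under 0.05 keep the same minimum change.

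The first question was whether goblet cells of the proximal and distal colon carried different Hox genes. Hoxb13 had the widest gap on the mean of the 3 genotypes. Its level in distal goblet cells was 183 and 196 CPM in GWTM2, 265 and 319 CPM in GS4M2, and 136 and 176 CPM in GA3M2. In proximal goblet cells it was 1.99 and 0.446 CPM in GWTM2, 0.776 and 1.52 CPM in GS4M2, and 0.224 and 0.295 CPM in GA3M2. All 6 distal libraries therefore stood far above all 6 proximal ones. Averaged over the 3 genotypes the difference was 8.05 ± 0.30 (SE) on the log2 scale (adjusted p = 6.38e-07). Hoxb13, the last gene of the HoxB cluster, is known as a marker of the most posterior gut and of the prostate. 

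The other end of the same cluster did the opposite. Hoxb6, a gene of the trunk region, stood at 96.7 and 108 CPM in proximal GWTM2, 95.3 and 117 CPM in proximal GS4M2, and 81.1 and 77.3 CPM in proximal GA3M2. In distal goblet cells it stood at 2.06 and 3.31 CPM in GWTM2, 0.227 and 0.160 CPM in GS4M2, and 0.864 and 1.25 CPM in GA3M2. The segments stood far apart in every genotype, and the mean difference was -6.62 ± 0.16 (SE) on the log2 scale (adjusted p = 1.46e-08). Hoxb4, known for expanding blood stem cells when overexpressed, ranged from 6.14 to 24.2 CPM in proximal libraries and from 0 to 1.2 CPM in distal ones. Both distal GS4M2 libraries had no Hoxb4 read, which against a floor of 3 reads over the group puts the proximal level at least 282-fold higher. Hoxb5, a regulator of enteric neural crest, was 13.7 to 20.6 CPM proximally and at most 1.09 CPM distally. Hoxb7 and Hoxb8, trunk genes next to Hoxb6, were 27.6 to 33.9 CPM and 24.7 to 41.8 CPM proximally, and at most 1.49 and 2.67 CPM distally. Mean differences of these genes were -5.95 ± 0.30 for Hoxb4, which depends on the pseudocount where reads were 0, -5.62 ± 0.29 for Hoxb5, -5.90 ± 0.57 for Hoxb7 and -5.00 ± 0.36 for Hoxb8 (SE; adjusted p at most 0.000163).

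Hoxb9 lies between these groups on the chromosome and also between them in its values. Known for its part in forming the rib cage, it was 108 to 147 CPM in proximal and 45 to 79.5 CPM in distal goblet libraries, a mean difference of -1.01 ± 0.12 (SE) on the log2 scale (adjusted p = 0.000414). Without any of 5 of the 12 libraries in turn the mean difference lay between -0.99 and -0.93, under the minimum of 1.

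In the HoxA cluster the change was smaller and mostly upwards. Hoxa13, required for hindgut and limb ends, stood at 40.4 and 49.5 CPM in distal GWTM2, 34.1 and 43.2 CPM in distal GS4M2, and 41.1 and 51.8 CPM in distal GA3M2. Its proximal levels were 12.6 and 7.34 CPM, 5.95 and 4.51 CPM, and 9.18 and 5.11 CPM in the same order. The segments did not overlap, and the mean difference was 2.60 ± 0.19 (SE) on the log2 scale (adjusted p = 2.63e-05). Hoxa9, known from blood progenitors and leukaemia, ranged from 17.4 to 37.8 CPM proximally and from 54.8 to 72.1 CPM distally, a mean difference of 1.45 ± 0.17 (SE; adjusted p = 0.000499). Hoxa10, a gene of the lumbar region and uterus, and Hoxa5, a gene of lung and foregut, were higher distally by 1.32 ± 0.24 (SE; adjusted p = 0.00573) and 1.277 ± 0.20 (SE; adjusted p = 0.00243). Hoxa7, a gene of the thoracic region, was 29.5 to 66.3 CPM proximally and 51.9 to 78.5 CPM distally and was not called (0.39 ± 0.12, SE; adjusted p = 0.0635).

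**Figure D1:**
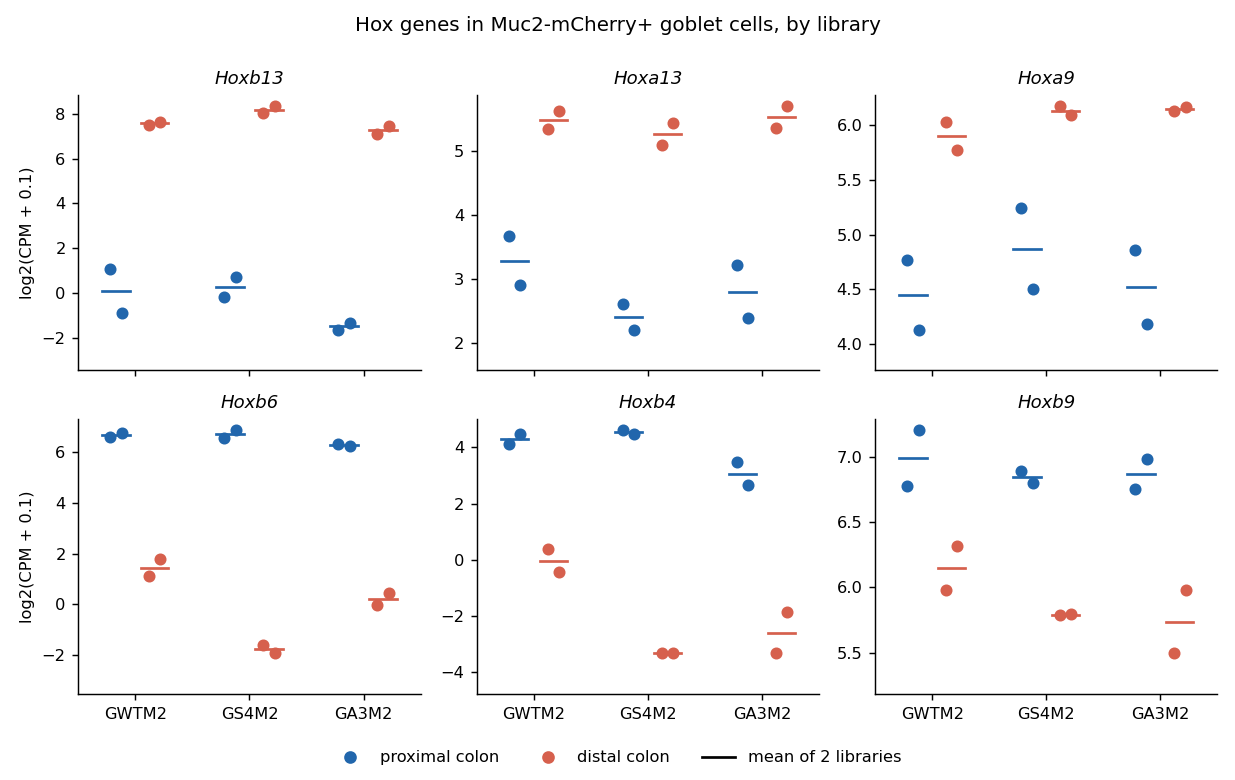
Level of 6 Hox genes in each Muc2-mCherry+ goblet cell library, as log2(CPM + 0.1), by genotype; blue points are proximal libraries, red points distal libraries, and short lines mark the mean of 2 libraries. Hoxb13, Hoxa13 and Hoxa9 were higher in every distal library, and Hoxb6, Hoxb4 and Hoxb9 in every proximal one.

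Counted over the 17 Hox genes that could be tested in goblet cells, 11 were called on the mean of the 3 genotypes, or 64.7%, against 4.7% of the 13050 genes tested (1.76% higher distally and 2.93% lower). Hoxa5, Hoxa9, Hoxa10, Hoxa13 and Hoxb13 were higher distally, and Hoxb4, Hoxb5, Hoxb6, Hoxb7, Hoxb8 and Hoxb9 lower. The median difference of the 17 genes was -0.21 on the log2 scale, beside 0.00 over all genes, since members moved both ways. Within genotypes, 7 of 17 were called in GWTM2, where 1.51% of all genes were (0.582% higher and 0.927% lower). In GS4M2 9 were called, beside 4.14% of all genes (1.72% and 2.41%), and in GA3M2 9, beside 0.751% (0.467% and 0.284%). Called in each of the 3 genotypes were Hoxa9, Hoxa13 and Hoxb13 as higher, and Hoxb4, Hoxb5, Hoxb6 and Hoxb8 as lower. The Hoxa9 call was lost without any of 8 of the 12 libraries in turn in GWTM2, and of 5 in GS4M2 and in GA3M2. Without the second proximal GWTM2 library 3 members were called in GWTM2, and without the second proximal GA3M2 library 5 in GA3M2. When the 4 GWTM2 libraries were fitted alone, 1 member (Hoxb6) was still called there.

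The HoxD genes could mostly not be tested in goblet cells because they were listed in 1 segment only. Hoxd4, a gene of the hindbrain and neck, was 25.1 to 45 CPM in proximal goblet libraries, at most 0.593 CPM in the distal GWTM2 and GA3M2 libraries, and not listed in distal GS4M2. Hoxd8, a trunk gene of the cluster, was 10.7 to 23.8 CPM proximally, at most 1.19 CPM distally in GWTM2 and GA3M2, and not listed in distal GS4M2 either. Hoxd3, its neighbour, was listed in proximal libraries only, at 5.45 to 19.1 CPM. Exons of Hoxd3 and Hoxd4 overlap in the annotation and the strand of the counting is not stated, so their reads may not be told apart. Hoxd13, known for forming the digits, was listed only distally, at 1.89 and 15.6 CPM in GWTM2, 9.66 and 8.41 CPM in GS4M2, and 2.07 and 1.36 CPM in GA3M2. The pair of GWTM2 libraries alone spanned nearly the whole range of the 6. Hoxd10, Hoxd11 and Hoxd12, the genes beside Hoxd13, reached at most 1.91 CPM in any goblet library.

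Length matters when levels of different genes are compared, so they were also divided by exon length. Per kilobase of exon, averaged over the 12 goblet libraries, Hoxb13 led with 48.4 CPM, followed by Hoxb9 with 35.0, Hoxb6 with 24.8, Hoxa7 with 20.6 and Hoxa10 with 12.2. Hoxb13 and Hoxb6 owed that place to a single segment each, ranging from 0.102 to 145 and from 0.0813 to 59.8 CPM per kilobase over libraries, while Hoxa7 kept within 10.3 to 27.3. The summed CPM of all listed Hox genes was 474 to 672 in every goblet library. The group 13 genes took 35.2 to 55.3% of that sum in distal libraries and 1.01 to 2.69% in proximal ones.

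Stromal cells of the same segments were asked the same question, and here HoxD genes could be tested. Hoxd9, a gene of trunk and proximal limb, stood at 62.7 and 60.7 CPM in proximal GWTT, 62.7 and 69.8 CPM in proximal GS4T, and 63.3 and 49.4 CPM in proximal GA3T. In distal stroma it stood at 3.36 and 2.06 CPM in GWTT, 1.07 and 1.51 CPM in GS4T, and 1.88 and 0.524 CPM in GA3T. No distal library came near a proximal one, and the mean difference was -5.25 ± 0.28 (SE) on the log2 scale (adjusted p = 3.13e-05). Hoxd8 was 50.4 to 88.9 CPM proximally and 1.36 to 2.73 CPM distally (mean -4.84 ± 0.19, SE; adjusted p = 3.74e-06). Hoxd4 was 11.2 to 21.5 CPM proximally and 0.143 to 0.973 CPM distally (mean -5.08 ± 0.31, SE; adjusted p = 0.000112).

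Hoxd11 and Hoxd10 lie further towards the posterior end of the cluster. Hoxd11, which patterns the forearm together with Hoxa11, was 42.6 and 38.8 CPM in proximal GWTT against 16.4 and 15.1 CPM in distal GWTT. In GS4T it was 57.2 and 58.5 CPM proximally against 2.71 and 3.21 CPM distally, and in GA3T 46.3 and 53.8 CPM against 9.90 and 7.18 CPM. Hoxd10, a gene of the hind limb and its motor neurons, was 24.9 and 29.7 CPM against 10.4 and 12.7 CPM in GWTT, 49.5 and 48.9 CPM against 1.36 and 2.92 CPM in GS4T, and 28.7 and 35.0 CPM against 5.97 and 2.69 CPM in GA3T. Proximal levels thus lay above distal ones in each genotype. Mean differences were -2.72 ± 0.11 (SE; adjusted p = 3.74e-06) for Hoxd11 and -2.91 ± 0.24 (SE; adjusted p = 0.000617) for Hoxd10.

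Hoxd13 was the exception within the cluster. No proximal stromal table listed it, and in distal stroma it stood at 25.1 and 24.1 CPM in GWTT, 2.79 and 3.96 CPM in GS4T, and 11.9 and 8.16 CPM in GA3T. The HoxC genes showed the reverse, since 6 of them (Hoxc4, Hoxc5, Hoxc8, Hoxc9, Hoxc10 and Hoxc11) were listed in the proximal stroma of all 3 genotypes and in no distal table. The 7 listed HoxC genes, with Hoxc6 included, summed to 21.0 to 44.4 CPM in proximal stroma. Hoxc6, a thoracic gene and the only member of the cluster with a distal row, was 5.52 to 10.1 CPM proximally and at most 1.12 CPM in distal GWTT and GA3T. No goblet or organoid table listed a HoxC gene. Several HoxC gene models overlap, so the split of reads among them is uncertain.

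Hoxa13 rose towards the distal end in stroma as it did in goblet cells. It stood at 56.0 and 55.1 CPM in distal GWTT, 38.9 and 52.8 CPM in distal GS4T, and 47.3 and 39.8 CPM in distal GA3T. Proximal levels were 6.91 and 7.20 CPM, 12.7 and 1.49 CPM, and 11.1 and 21.0 CPM in the same order, with no overlap of the segments. The mean difference was 2.60 ± 0.43 (SE) on the log2 scale (adjusted p = 0.0277). This call was lost without any of 8 of the 12 libraries in turn, where the adjusted p was 0.0526 to 0.102 and the difference 2.44 to 2.67. Hoxb6 was 6.34 to 16.8 CPM proximally and 0.973 to 2.72 CPM distally (mean -2.46 ± 0.32, SE; adjusted p = 0.00896). Leaving out a single library did not end this call, but under an alternative that was not planned the adjusted p was 0.0748. Per 1000 CPM of epithelial markers, proximal Hoxb6 was 3.44 to 504 in stromal and 4.94 to 10.1 in goblet libraries. The part of these markers in the Hoxb6 difference was not tested. Hoxa3, a gene of the pharyngeal pouches, was 8.08 to 10.51 CPM proximally and 2.47 to 8.20 CPM distally (mean -1.36 ± 0.21, SE; adjusted p = 0.0220). The Hoxa3 call was lost without any of 5 of the 12 libraries (either distal GWTT, either proximal GS4T or the first proximal GA3T), with an adjusted p of 0.0541 to 0.0793. Hoxa10 stayed between 49.9 and 68.7 CPM in all 12 stromal libraries, a mean difference of 0.00 ± 0.08 (SE; adjusted p = 0.993).

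**Figure D2:**
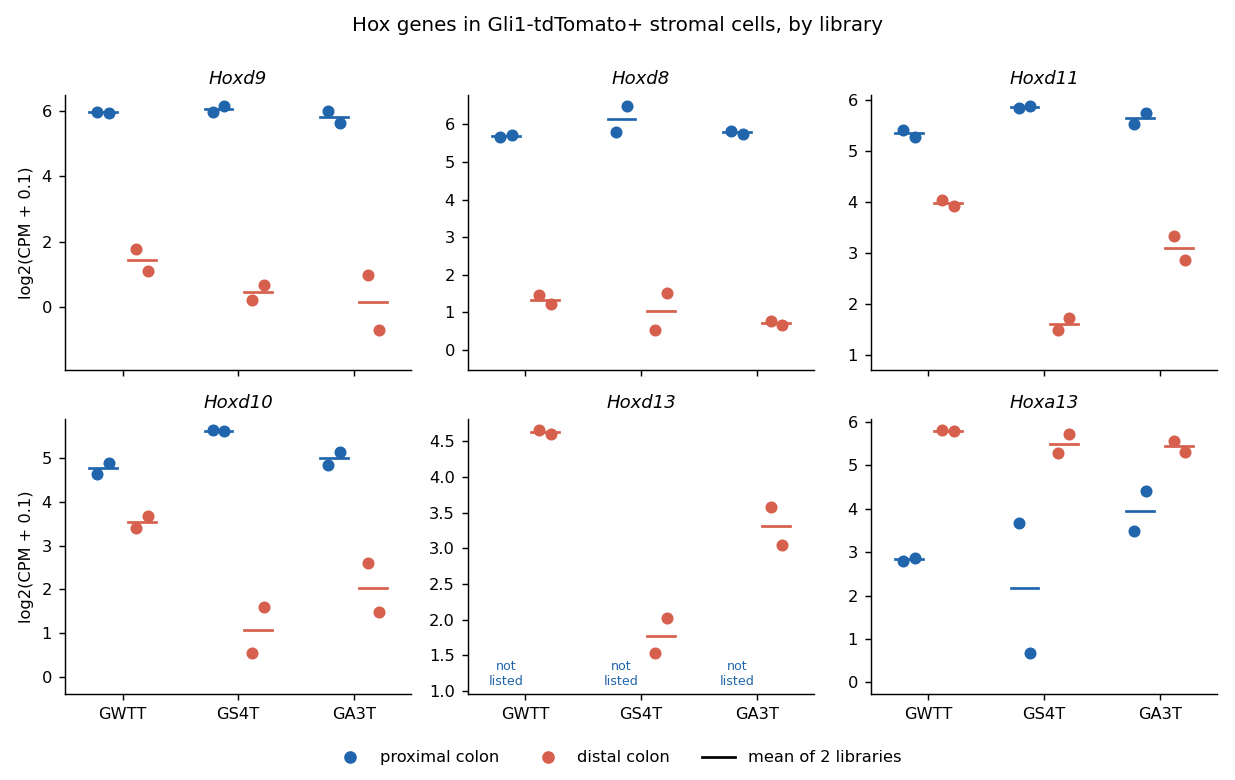
Level of 6 Hox genes in each Gli1-tdTomato+ stromal library, as log2(CPM + 0.1), by genotype; blue points are proximal libraries, red points distal libraries, and short lines mark the mean of 2 libraries. Hoxd9, Hoxd8, Hoxd11 and Hoxd10 were higher in every proximal library, with the lowest distal Hoxd11 and Hoxd13 in GS4T, while Hoxd13 was listed in distal tables only.

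Of the 21 Hox genes tested in stroma, 8 were called on the mean of the 3 genotypes, or 38.1%, against 0.665% of the 15500 genes tested (0.368% higher and 0.297% lower). They were Hoxa13 as higher distally and Hoxa3, Hoxb6, Hoxd4, Hoxd8, Hoxd9, Hoxd10 and Hoxd11 as lower. The median difference of the 21 genes was -1.18 on the log2 scale, beside 0.01 over all genes, and 18 of the 21 lay below zero in all 3 genotypes. Within genotypes, 4 were called in GWTT, where 1.32% of all genes were (1% higher and 0.323% lower). In GS4T 5 were called, beside 0.0645% of all genes (0.00645% and 0.0581%), and in GA3T 5, beside 0.0903% (0.0516% and 0.0387%). These calls were HoxD genes in each genotype, lower distally. Hoxd4, Hoxd8, Hoxd9 and Hoxd11 were called in each genotype. These within-genotype counts rested on single libraries. Without the proximal GS4T library numbered 2, which had low Gli1, 2 members were called in GS4T, namely Hoxd8 at -4.77 and Hoxd11 at -4.23. Without either distal GWTT library, 1 member (Hoxd8) was called in GWTT. In GA3T 3 were called without either proximal GA3T or either proximal GS4T library, and 1 without both libraries with low Gli1. With the replicate number as a block Hoxd10 was not called in GA3T (-2.95, adjusted p = 0.0798).

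The summed CPM of the listed Hox genes was 424 to 546 in proximal and 194 to 277 in distal stroma. HoxD genes took 42.9 to 53.2% of that sum proximally and 4.33 to 21.1% distally, and group 13 genes took 0.273 to 4.75% proximally and 23.2 to 31.5% distally. Per kilobase of exon, Hoxa10 led in stroma with 18.4 CPM, followed by Hoxd9 with 14.8, Hoxa11 with 13.1, Hoxa13 with 11.8 and Hoxd10 with 11.6. Over the 12 libraries Hoxa10 ranged from 15.3 to 21.0 and Hoxa11 from 9.42 to 19.6, while Hoxd9 ranged from 0.245 to 32.7 and Hoxd10 from 0.747 to 27.3.

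Goblet and stromal cells of control mice were next compared directly, over the 14 Hox genes with a row in every sorted table. In proximal colon 8 of 14 were called, or 57.1%, where 42.4% of all genes were called. Hoxa10 and Hoxa11, a gene of forearm and kidney, were higher in stroma, by 1.46 ± 0.34 (SE; adjusted p = 0.00156) and 2.70 ± 0.47 (SE; adjusted p = 0.000103). Hoxb9 was lower in stroma by a wide margin (-6.93 ± 1.1, SE; adjusted p = 6.36e-05), at 0.162 and 4.01 CPM in proximal GWTT against 110 and 147 CPM in proximal GWTM2. Hoxb7, Hoxb6, Hoxb5, Hoxa7 and Hoxa3 were lower in stroma as well, by -3.09 to -1.24 on the log2 scale. In distal colon 8 of 14 were called, again 57.1%, where 42.4% of all genes were called. Hoxa11 and Hoxb4 were higher in stroma, by 3.41 ± 0.47 (SE; adjusted p = 9.66e-06) and 3.12 ± 0.48 (SE; adjusted p = 2.97e-05). Hoxb9, Hoxa7, Hoxa3, Hoxa5, Hoxa2 (a gene of the second pharyngeal arch) and Hoxa9 were lower, from -7.62 for Hoxb9 to -1.53 for Hoxa9. A median shift of all genes of 0.12 proximally and 0.15 distally stood in these comparisons, which TMM scaling reduced to 0.03 and 0.02 with no called Hox gene changing sign.

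Whether the segment difference itself differed between the cell types was tested with an interaction term, and 5 of 14 Hox genes passed, or 35.7%, against 1.68% of all genes (1.21% higher and 0.47% lower). Hoxa3, Hoxa5, Hoxa7 and Hoxa9 lay above their proximal level in distal control goblet cells and below it in distal control stroma. Taken within a cell type, only the Hoxa9 difference in GWTM2 was called (adjusted p = 0.0407). In GWTM2 the adjusted p was 0.546 for Hoxa3, 0.0549 for Hoxa5 and 0.221 for Hoxa7. In GWTT it was 0.0554, 0.378 and 0.101 in the same order, and 0.389 for Hoxa9. Hoxa9, for example, was 27.2 and 17.4 CPM proximally and 65.3 and 54.8 CPM distally in GWTM2, and 26.8 and 34.8 CPM proximally and 20.7 CPM in both distal libraries in GWTT. The interaction was -2.08 ± 0.41 (SE; adjusted p = 0.0171) for Hoxa3, -2.37 ± 0.54 (adjusted p = 0.0357) for Hoxa5, -1.97 ± 0.43 (adjusted p = 0.0282) for Hoxa7 and -2.02 ± 0.43 (adjusted p = 0.0281) for Hoxa9. For Hoxb6 it was 2.70 ± 0.63 (adjusted p = 0.0402), since the fall of this gene towards the distal end was larger in goblet cells. None of the 5 calls held without the second proximal GWTM2 library, where their adjusted p was 0.0841 to 0.178. None held without the second distal GWTT library either. With each of the 24 libraries left out in turn, the call was lost 10 times for Hoxb6, 8 for Hoxa5, 5 for Hoxa9, 4 for Hoxa7 and 3 for Hoxa3. That of Hoxb6 was also lost with a pseudocount of 0.02. HoxD genes could not enter this test.

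**Figure D3:**
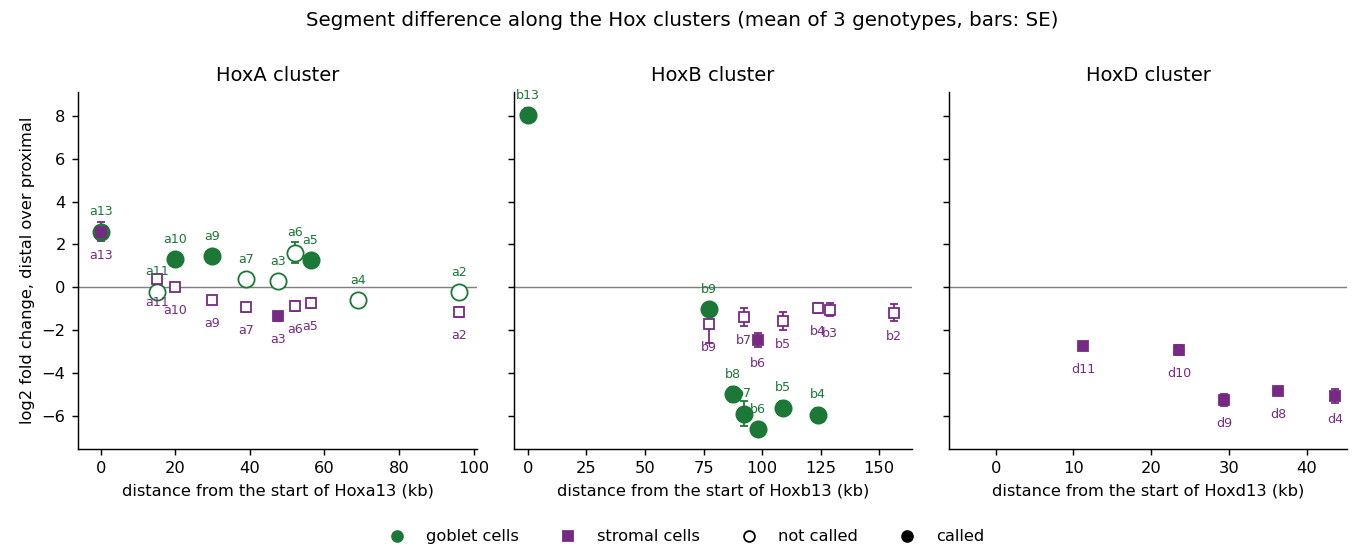
Difference between distal and proximal colon on the log2 scale (mean of 3 genotypes, bars are SE) against distance from the start of the group 13 gene in the HoxA, HoxB and HoxD clusters, for goblet cells (green circles) and stromal cells (purple squares); filled symbols were called. Distances are between annotated gene starts, and the outermost start of Hoxa3 puts it at 47.5 kb, between Hoxa7 and Hoxa6. In goblet cells HoxA genes lay mostly above zero and HoxB genes from Hoxb9 to Hoxb4 below it, with Hoxb13 at 8.05, and in stroma all 5 HoxD genes tested lay at or below -2.72.

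Set along the chromosome, the 10 HoxA genes tested in goblet cells had a median difference of 0.83 and the 7 HoxB genes one of -5.62, with Hoxb13 alone above zero. In stroma the 9 HoxA genes had a median of -0.72, the 7 HoxB genes -1.39 and the 5 HoxD genes -4.84. Neighbours share their cluster and are not independent points.

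The 250 bases before the start of transcription are shown for 4 of the Hox genes, from RefSeq on GRCm38.p6 and in the direction of the gene: Hoxb8 for the HoxB genes that were lower in distal goblet cells, Hoxa13 for the gene higher distally in both cell types, and Hoxd9 and Hoxd11 for the HoxD genes lower in distal stroma. The promoter table held 21 of the 36 members, with 23 start sites. Among those without an entry were Hoxb13 and Hoxb6. Capitals mark TTTAT on either strand (read as ATAAA on the other strand), letters shared by many Cdx sites.
Hoxb8, chr11:96281655-96281904, plus strand: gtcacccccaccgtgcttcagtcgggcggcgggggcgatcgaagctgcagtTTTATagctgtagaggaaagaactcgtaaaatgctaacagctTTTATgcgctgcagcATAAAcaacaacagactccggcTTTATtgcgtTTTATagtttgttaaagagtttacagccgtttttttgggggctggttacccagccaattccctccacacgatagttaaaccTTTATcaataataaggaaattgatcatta
Hoxa13, chr6:52260881-52261130, minus strand: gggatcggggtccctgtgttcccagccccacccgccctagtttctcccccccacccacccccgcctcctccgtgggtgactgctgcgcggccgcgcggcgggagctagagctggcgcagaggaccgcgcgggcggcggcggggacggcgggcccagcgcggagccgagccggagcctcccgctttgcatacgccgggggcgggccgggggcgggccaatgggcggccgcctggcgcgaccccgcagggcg
Hoxd9, chr2:74697513-74697762, plus strand: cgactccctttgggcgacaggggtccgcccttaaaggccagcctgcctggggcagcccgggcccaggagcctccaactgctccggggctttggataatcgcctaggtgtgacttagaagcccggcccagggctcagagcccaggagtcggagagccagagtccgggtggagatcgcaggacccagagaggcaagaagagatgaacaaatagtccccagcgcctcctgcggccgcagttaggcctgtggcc
Hoxd11, chr2:74679308-74679557, plus strand: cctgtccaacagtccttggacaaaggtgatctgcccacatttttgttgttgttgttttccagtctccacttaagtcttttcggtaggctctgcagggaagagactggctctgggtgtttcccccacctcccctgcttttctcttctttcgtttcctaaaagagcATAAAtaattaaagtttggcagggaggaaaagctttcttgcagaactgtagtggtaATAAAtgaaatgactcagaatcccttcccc
The letters occurred 6 times in the Hoxb8 window, 2 times in the Hoxd11 window shown and not in those of Hoxa13 and Hoxd9. Hoxb4, the other HoxB gene with an entry and also lower in distal goblet cells, had none in its window, which is not shown. Hoxd11 has a second start site, not shown, whose window (chr2:74682073-74682322) held none of them. That window had 60.4% GC and 20 CpG, beside 44.8% and 2 CpG in the window shown. The letters were in 9 of 23 Hox windows (39.1%) and in 37.3% of 32851 promoters of the same length. The Hox windows had a median GC content of 58.0% and 13 CpG, beside 52.4% and 6 CpG over all promoters, and the Hoxa13 window reached 80.0% with 35 CpG.

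The next question was whether loss of Smad4 or Alk3 in Gli1+ cells altered these genes. In distal stroma, 4 of 22 tested Hox genes were called in GS4T against GWTT, or 18.2%, where 14% of all genes were called (7.87% higher and 6.09% lower). Hoxd13 (25.1 and 24.1 CPM in GWTT, 2.79 and 3.96 CPM in GS4T) was lower by -2.84 ± 0.29 (SE; adjusted p = 0.00320). Hoxd11 (16.4 and 15.1 CPM, against 2.71 and 3.21 CPM) was lower by -2.36 ± 0.29 (SE; adjusted p = 0.00538). Hoxd10 (10.4 and 12.7 CPM, against 1.36 and 2.92 CPM) was lower by -2.46 ± 0.46 (SE; adjusted p = 0.0170), and without either GWTT library its adjusted p was 0.0769 and 0.104. The 3 genes lie side by side at the posterior end of HoxD with Hoxd12. Hoxd9 (-0.98 ± 0.54, SE; adjusted p = 0.237) and Hoxd8 (-0.29 ± 0.54, SE; adjusted p = 0.728) did not pass.

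In GA3T against the same GWTT libraries, 0 of 21 Hox genes were called by limma and by edgeR, 2 by DESeq2 and 3 at an unadjusted p under 0.05, where 0% of all genes were called. Hoxd13, at 11.9 and 8.16 CPM, lay at -1.32 ± 0.23 (SE; adjusted p = 0.116), Hoxd11 at -0.90 ± 0.24 (adjusted p = 0.174) and Hoxd10 at -1.51 ± 0.43 (adjusted p = 0.184). The distal GA3T values of Hoxd13 and Hoxd11 lay between those of GWTT and GS4T in each library, and for Hoxd10 GA3T overlapped GS4T. The GS4T and GA3T comparisons share their controls.

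Hoxb13 was higher in distal GS4T stroma, at 8.93 and 16.1 CPM against 2.16 and 1.35 CPM in GWTT (2.78 ± 0.46, SE; adjusted p = 0.0116). Without the second distal GWTT library the difference was 2.45 with an adjusted p of 0.0515. In GA3T it was 22.6 and 7.93 CPM (2.92 ± 0.58, SE; adjusted p = 0.129). Epithelial markers were also higher in both knockouts than in GWTT. Within GS4T and GA3T the library with more of them had the higher Hoxb13, and within GWTT the lower. Their sum was 84.5 and 264 CPM in distal GWTT, 1008 and 2056 CPM in GS4T, and 1484 and 644 CPM in GA3T, with all 8 markers listed and none at 0 in these libraries. Per 1000 CPM of epithelial markers, Hoxb13 was 25.6 and 5.09 in GWTT, 8.86 and 7.84 in GS4T, 15.2 and 12.3 in GA3T, and 11.1 to 23.9 in distal goblet libraries. Hoxb9 in proximal stroma was 0.162 and 4.01 CPM in GWTT, 8.43 and 19.3 CPM in GS4T, and 3.58 and 5.96 CPM in GA3T, and was not called (3.68 ± 1.4, SE; adjusted p = 0.132 in GS4T). Per 1000 CPM of epithelial markers it was 4.58 to 8.16 in the 6 proximal stromal libraries and 8.09 to 12.6 in the proximal goblet libraries. The part of the epithelial markers in these differences was not tested.

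**Figure D4:**
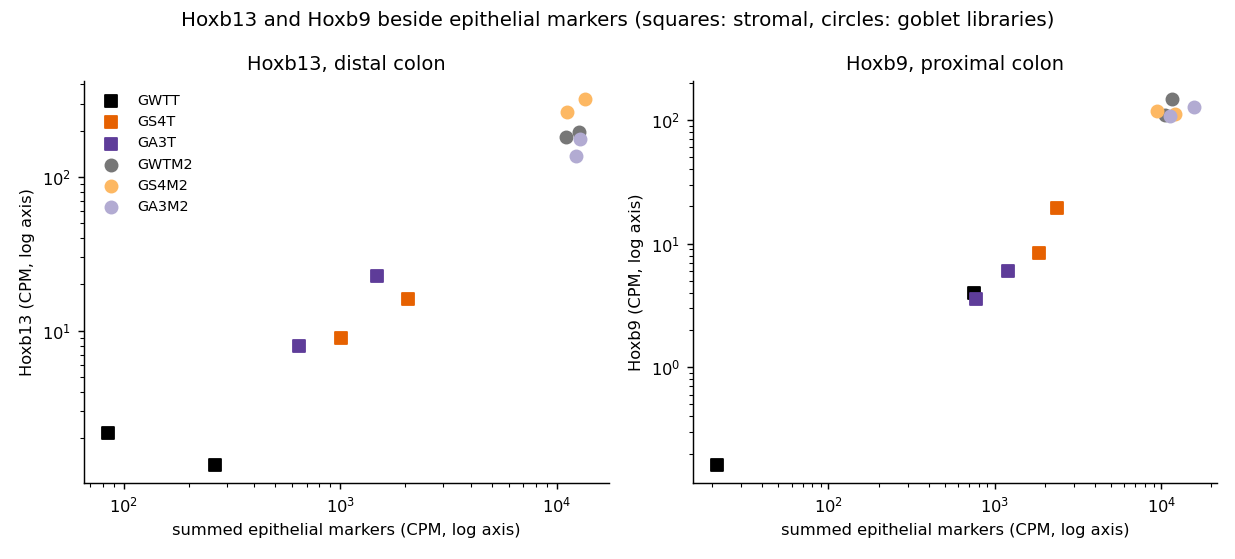
Hoxb13 in distal and Hoxb9 in proximal libraries (CPM, log axis) against the sum of 8 epithelial markers (CPM, log axis); squares are stromal and circles goblet libraries, coloured by genotype. Among stromal libraries the lowest values, 1.35 CPM of Hoxb13 and 0.162 CPM of Hoxb9, were in controls, the highest were 22.6 and 19.3 CPM, and the goblet libraries lay above them on both axes.

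In proximal stroma 1 of 30 Hox genes was called in GS4T, or 3.33%, where 9.59% of all genes were called (5.24% higher and 4.35% lower). Hoxb4 was 25.6 and 26.3 CPM in GWTT against 6.49 and 9.27 CPM in GS4T (-1.74 ± 0.26, SE; adjusted p = 0.0171). Without the first or the second GS4T library the difference was -1.47 or -2.01, with an adjusted p of 0.0927 or 0.0550. Hoxb2, a gene of the hindbrain, lay at -2.51 ± 0.78 (SE; adjusted p = 0.0900) on levels of 2.27 and 3.84 CPM against 0.224 and 0.865 CPM. Hoxd10, at 49.5 and 48.9 CPM against 24.9 and 29.7 CPM, was higher by 0.84 ± 0.14 (SE; adjusted p = 0.0236), under the minimum change. In GA3T, 0 of 30 were called by limma, edgeR and DESeq2 and 3 at an unadjusted p under 0.05, where 0.0522% of all genes were called. Hoxb4 was 16.0 and 8.24 CPM there (-1.19 ± 0.35, SE; adjusted p = 0.166), Hoxb9 lay at 2.23 ± 1.4, Hoxb2 at -1.71 ± 0.54 and Hoxc5 at 1.43 ± 0.61 (SE).

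The test of the difference between genotypes used an interaction term in all 12 stromal libraries. The fall of Hoxd11 from proximal to distal colon was larger in GS4T than in GWTT by -2.89 ± 0.27 (SE) on the log2 scale (adjusted p = 0.00648), 1 of 21 Hox genes where 0.0516% of all genes were called (0.0129% higher and 0.0387% lower). Hoxd10 lay at -3.32 ± 0.58 (SE; adjusted p = 0.0824). Without the first or the second distal GWTT library the Hoxd11 value was -2.83 or -2.94, with an adjusted p of 0.0759 or 0.0537. Without both proximal libraries with low Gli1 it was -2.87 (adjusted p = 0.0715). In GA3T none of the 21 was called by limma or edgeR, 1 was by DESeq2 and 2 were at an unadjusted p under 0.05, where 0% of all genes were called. Its largest values were 2.20 ± 1.0 for Hoxb2, -1.72 ± 0.58 for Hoxd10 and -1.46 ± 1.1 for Hoxa13 (SE; adjusted p = 0.696, 0.529 and 0.869), and Hoxd11 lay at -1.19 ± 0.27 (SE; adjusted p = 0.336).

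In goblet cells, whose neighbouring stroma carried the deletion, no Hox gene was called in any of the 4 comparisons with GWTM2. Among all genes 0.325% were called in proximal GS4M2 (0.174% higher and 0.151% lower), 0.09% in proximal GA3M2 (0.0375% higher and 0.0525% lower) and 0% in both distal comparisons. At an unadjusted p under 0.05 the counts were 1 of 24 and 3 of 23 proximally and 2 of 18 and 1 of 17 distally, edgeR called none, and DESeq2 called 1, 1, 1 and 0 in the same order. Hoxd9 in proximal goblet cells was 0.255 and 0 CPM in GWTM2, 4.72 and 6.83 CPM in GS4M2, and 2.46 and 2.75 CPM in GA3M2. All 4 knockout libraries stood above both controls, with 5.36 ± 0.84 (SE; adjusted p = 0.0772) for GS4M2 and 4.37 ± 0.94 (SE; adjusted p = 0.17) for GA3M2. The fibroblast markers in those goblet libraries summed to at most 36.1 CPM, with 2 of the 10 markers listed in GS4M2 and 8 in GWTM2 and GA3M2, and their part was not tested. Among the Hox genes tested in distal goblet cells, the largest differences were -3.47 ± 0.53 (SE; adjusted p = 0.373) for Hoxb6 and -2.58 ± 0.83 (SE; adjusted p = 0.438) for Hoxb7 in GS4M2, both at levels under 4 CPM, and -2.16 ± 1.5 for Hoxb7 and -2.05 ± 1.1 for Hoxd11 in GA3M2. The values of Hoxa13 and Hoxb13 in distal goblet cells of either knockout lay within 0.57 of zero on the log2 scale.

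By the interaction term in the 12 goblet libraries, the fall of Hoxb6 towards the distal end was larger in GS4M2 than in GWTM2 by -3.27 ± 0.38 (SE) on the log2 scale (adjusted p = 0.0412), 1 of 17 Hox genes where 0.0153% of all genes were called. The distal values behind it were 2.06 and 3.31 CPM against 0.227 and 0.160 CPM, and with a pseudocount of 1 in place of 0.1 the value was -1.66 (adjusted p = 0.339). The call was lost without any of 11 of the 12 libraries in turn, the exception being the first distal GWTM2 library, and the value then lay between -3.44 and -2.94. In GA3M2 no Hox gene was called by limma, edgeR or DESeq2 and none at an unadjusted p under 0.05, where 0.00766% of all genes were called.

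Colon organoids are cultures of epithelium without stroma. Of their 18 labelled libraries 16 were distinct, since 2 control libraries were deposited under both times, with equal reads in 100% of 14716 genes. Hoxb13 led per kilobase with 79.7 CPM, followed by Hoxa13 with 28.0, Hoxb9 with 21.7, Hoxa10 with 18.5 and Hoxa7 with 11.2. Of the distinct libraries 14 held 135 to 254 CPM of Hoxb13, beside 136 to 319 CPM in the distal goblet libraries, and 2 stood apart. These were the control library labelled replicate 2 at 12 h and replicate 1 at 72 h, with 25.3 CPM, and IL17A at 72 h replicate 2, with 27.9 CPM. The same 2 libraries had Hoxa13 at 33.2 and 40.7 CPM against 56.5 to 91.6 CPM in the others, Hoxd13 at 0.414 and 1.09 CPM against 5.58 to 57.1 CPM, and Hoxb9 at 109 and 114 CPM against 17.9 to 64.7 CPM. Hoxb4, Hoxb5, Hoxb6, Hoxb7 and Hoxb8, high in proximal goblet cells, were listed in no organoid table.

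**Figure D5:**
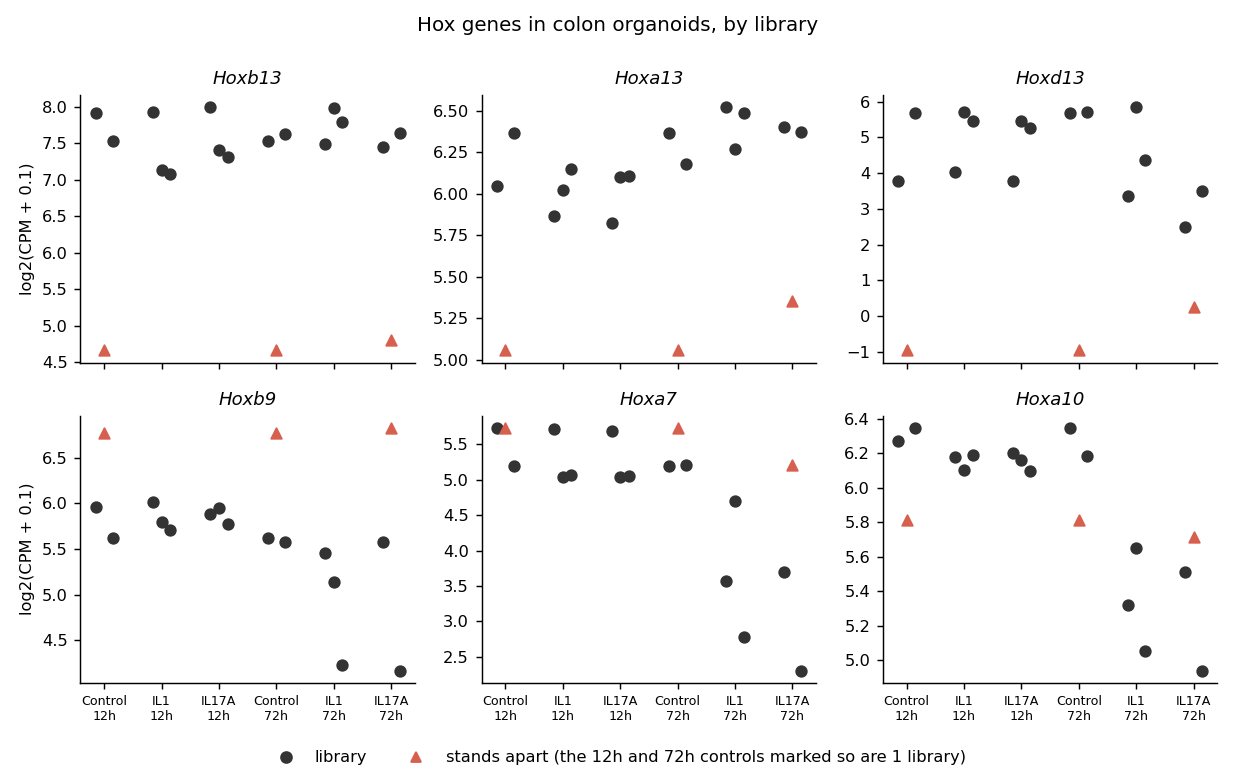
Level of 6 Hox genes in each organoid library, as log2(CPM + 0.1), by treatment and time; triangles mark the libraries that stand apart, of which the 12 h and 72 h control triangles are 1 library. The triangles lie lowest for Hoxb13, Hoxa13 and Hoxd13 and highest for Hoxb9, and Hoxa7 at 72 h ranges from 36.5 to 53.1 CPM in controls and from 6.80 to 25.8 CPM with IL1.

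The question for organoids was whether the interleukins altered Hox genes. At 12 h no Hox gene of 16 was called with IL1 (0.0543% of all genes) or IL17A (0.0386%), by limma, edgeR or DESeq2, and none had an unadjusted p under 0.05. At 72 h, 1 of 18 was called with IL1, or 5.56%, where 23% of all genes were called (10.9% higher and 12.2% lower). Hoxa7 was 53.1, 36.8 and 36.5 CPM in controls and 11.8, 25.8 and 6.80 CPM with IL1 (-1.41 ± 0.41, SE; adjusted p = 0.0296). The groups did not overlap, but the call held without only 1 of the 6 libraries (IL1 replicate 2, adjusted p = 0.00674), and without each of the others in turn the adjusted p was 0.0608 to 0.0854. With the replicate number as a block it was -1.09 (adjusted p = 0.113). The controls with 53.1 and 36.5 CPM are the libraries deposited under both times, so their true time is not known. Both are in every organoid comparison, and through them culture time cannot be told apart from treatment. Hoxa3, at 25.8, 17.1 and 17.8 CPM in controls and 9.49, 11.8 and 6.51 CPM with IL1, lay at -0.85 ± 0.27 (SE; adjusted p = 0.0397), under the minimum change. With IL17A at 72 h, 0 of 17 were called by limma, edgeR and DESeq2 and 0 at an unadjusted p under 0.05, where 7.97% of all genes were called. Hoxa7 was 12.9, 36.7 and 4.85 CPM there (-1.37 ± 0.59, SE; adjusted p = 0.132). Without both libraries that stand apart, an alternative chosen after seeing the data, 2 were called with IL17A, Hoxa7 at -1.82 (adjusted p = 0.0309) and Hoxd13 at -2.31 (adjusted p = 0.0144). Hoxd13 was 52.0 and 51.4 CPM in the remaining controls and 5.58 and 11.2 CPM with IL17A. The libraries left out were picked by their Hox values, Hoxd13 among them, so these calls cannot decide whether IL17A altered the genes. Untreated organoids also varied, since the 12 h control numbered 1 had 234 Hoxd13 reads, against 816 and 893 in the remaining 72 h controls.

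Genes that work with Hox proteins or regulate the clusters were counted from a list of 43 (Pbx, Meis and Pknox partners, Cdx factors, retinoic acid enzymes and receptors, Polycomb and trithorax members). Between segments few were called, as among all genes. In goblet cells 0 of 31 were called in GWTM2 by limma (1 at an unadjusted p under 0.05), where 1.51% of all genes were. In GS4M2 it was 1 (Cdx2, an intestinal master regulator, -1.03), or 3.23% beside 4.14%. In GA3M2 it was 1 (Rarg, a retinoic acid receptor, -1.03), or 3.23% beside 0.751%. On the mean of the genotypes it was Aldh1a1, which makes retinoic acid (-2.10), or 3.23% beside 4.7%. In stroma 1 of 39 was called in GWTT (Meis1, -1.09), or 2.56% beside 1.32% of all genes. In GS4T and GA3T 0 were called (1 each at an unadjusted p), beside 0.0645% and 0.0903%. Of the segment differences by genotype, Pknox2 alone was called, in GS4T against GWTT (-1.50), or 2.56% beside 0.0516% of all genes. Of that between cell types Rarg (1.16) and Pbx3 (-1.23) were called, or 6.45% beside 1.68%. In GS4T against GWTT, 5 of 38 were called in each segment, or 13.2%, near the 9.59% and 14% of all genes. Proximally Aldh1a3 was higher (1.13), and Meis1 (-1.38), Aldh1a1 (-1.31) and Meis2 (-1.14) were among the lower. Distally Cdx1 (2.86) and Cyp26b1 (2.23), which degrades retinoic acid, were among the higher, and Aldh1a1 (-2.27) and Cbx7 (-1.81) were lower. Cdx1 was lower in distal control stroma than in goblet cells, by -7.10. The epithelial marker sum was 1008 and 2056 CPM in distal GS4T against 84.5 and 264 CPM in GWTT. Its part in the Cdx1 difference was not tested. Between stroma and goblet cells 16 of 31 were higher and 4 lower proximally, and 15 and 4 distally, where 42.4% of all genes were called in each segment (22.3% higher and 20.1% lower proximally, 23.8% and 18.7% distally), with Cdx1, Cdx2 and Ezh2 among the lower in stroma in both. GA3T, GS4M2 and GA3M2 against controls had 0 called in each segment by limma, with 0 to 5 at an unadjusted p. In organoids, where 23% of all genes were called with IL1 at 72 h and 7.97% with IL17A, IL1 at 72 h gave 6 higher (Cyp26b1, Ezh1, Meis1, Pbx4, Pdx1 and Rarg) and 5 lower (Bmi1, Cbx2, Ezh2, Pbx3 and Phc1) of 35, IL17A at 72 h gave 1 lower of 34 (Bmi1, -1.21), and 12 h gave 0 (1 and 0 at an unadjusted p).

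A second list held 20 noncoding and antisense genes of the clusters, of which 5 to 10 could be tested. Hottip, a noncoding RNA transcribed from the far end of HoxA beside Hoxa13, was higher in distal goblet cells by 4.15 in GWTM2, 5.08 in GS4M2 and 5.12 in GA3M2 (adjusted p at most 0.00510). Hoxa11os, antisense to Hoxa11, was higher there by 2.27, 2.54 and 2.60 (adjusted p at most 0.0154), while Hoxa11 itself, at 2.07 to 7.66 CPM in all goblet libraries, was not called. In each genotype these 2 were 33.3% of the 6 tested, beside 1.51%, 4.14% and 0.751% of all genes. Reads of Hoxa11 and its antisense partner cannot be told apart if the counting ignored strand. In stroma 0 of 6 were called in any segment comparison by limma, with 0 to 2 at an unadjusted p. Hotairm1 was higher in stroma than in goblet cells by 2.76 and 2.29, and Gm53 and Hoxaas3 lower, by -7.01 and -2.22 proximally and -7.60 and -3.64 distally. These were 60% of the 5 tested in each segment, where 42.4% of all genes were called. Gm53 was also higher in distal GS4T than in GWTT (3.41), or 16.7% of the 6 tested beside 14% of all genes. The epithelial marker sum was 1008 and 2056 CPM there against 84.5 and 264 CPM, and its part was not tested. With both cytokines at 72 h Gm53 was higher (1.15 and 1.34), and with IL1 Hottip was higher (1.46) and Hoxaas3 lower (-1.63). The share called was 50% with IL1 and 16.7% with IL17A, beside 23% and 7.97% of all genes. No other comparison called a member of this list.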

How the data were processed

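Muc2-mCherry+ goblet cells, Gli1-tdTomato+ stromal cells and organoids were profiled by RNA-seq from a SMARTER kit, in 42 labelled libraries of which 40 were distinct. The deposited tables hold signal values, gene counts that the authors divided by a DESeq2 size factor within each table. The submitters' processing notes name STAR 2.5.3, DESeq2 1.28.1 and mm10, and strand is not stated. Whole reads were recovered from the steps between values (100% within 0.1 of a whole number), and CPM was taken on the 12171 genes listed in all 12 tables. No column was left without a sample (0). A set of 4 rows without a gene name in both GS4M2 tables, holding 20.9 to 28.2% of reads, was left out. The authors' own fold changes and p-values were not used.

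Segments and cell types were compared with limma 3.58.1 (R 4.3.3, trend) on log2(CPM + 0.1), for genes with a row in every table of the comparison and a mean of at least 0.5 CPM, over the 12 libraries of a cell type (24 for both). Knockout and organoid tables were compared on log2(normalized value + 1) at a mean of at least 10. p-values were adjusted over all genes (Benjamini-Hochberg, threshold 0.05, minimum change 1). edgeR 4.0.16 and DESeq2 1.42.0 on the recovered reads, other pseudocounts, filters and scalings, a replicate block and leaving out each library were alternatives. The scripts were tested on simulated data.

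Genes named were, per comparison, the called members (at most 6 by size), or the 3 with the largest change where under 3 were called, the group 13 genes, the 5 highest per exon length in each cell type, and called members of the lists. Some called list members are not reported here by name. A few others were named after their values were seen, as neighbours in a cluster. The members and lists were chosen with earlier results of these data known. The SE of a difference comes from the limma fit and reflects the spread between libraries. Limits set by read counts cover counting error only.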

Additional observations from a re-analysis of the deposited data

Results flagged for a closer look

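For 7 Hox values a difference between groups was itself tested and passed (limma, interaction term, log2 scale). Between genotypes, the segment difference of Hoxb6 in goblet cells was lower in GS4M2 than in GWTM2 by -3.27, and that of Hoxd11 in stroma was lower in GS4T than in GWTT by -2.89. Between cell types of control mice, the segment difference in stroma minus that in goblet cells was -2.08 for Hoxa3, -2.37 for Hoxa5, -1.97 for Hoxa7, -2.02 for Hoxa9 and 2.70 for Hoxb6. The 2 genotype differences and all 5 differences between cell types were lost when certain single libraries were left out, as given with each result. Without both proximal libraries with low Gli1 the Hoxd11 value was -2.87. No group of the sorted cells has more than 2 libraries and no organoid group more than 3, so single libraries could not be tested for standing apart within a group.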

How the results depend on the processing

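Counts below are Hox genes called. Of 87 called Hox values, 45 stayed called under each alternative run, those chosen after seeing the data included, and none changed sign. Planned settings other than leaving out a library lost a call 24 times in 809, and leaving out a library 131 times in 1250. Why a call was lost was not tested. With only the 4 libraries of a genotype, 1 gene was called between segments in GWTM2, 8 in GWTT, 2 in GS4T and 0 in GA3T. With genes not listed in a table set to 0 reads (or to the lowest listed mean), so that more genes were tested, counts were 15 (14) in GWTM2, 16 (15) in GS4M2, 16 (14) in GA3M2, 19 (18) over goblet genotypes, 13 (10) in GWTT, 14 (10) in GS4T, 14 (10) in GA3T, 20 (18) over stromal genotypes, 23 (24) and 18 (16) for proximal and distal stroma against goblet cells, and 17 (17) for the difference between cell types. Without both proximal libraries with low Gli1, chosen after seeing the data, 2 were called in GS4T, 1 in GA3T and 0 for GS4T against GWTT segments, and without the GWTT library with more epithelial markers as well 1, 0 and 0, and 1 between cell types. A pseudocount of 1 gave 0 for the GS4M2 segment difference and 8 between cell types, and one of 10 gave 1 in proximal GS4M2. edgeR gave 0 for the GS4M2 segment difference. DESeq2 gave 2 there, 10 in GWTT, 2 and 1 for the GS4T and GA3T segment differences, 1, 1 and 3 in proximal GS4M2, GA3M2 and GS4T, and 1 and 2 in distal GS4M2 and GA3T. An unadjusted p gave 3, 2 and 2 for the GS4M2, GS4T and GA3T segment differences, 12 in GWTT, 10 in GA3T, 13 over stromal genotypes, 1, 3, 7 and 3 in proximal GS4M2, GA3M2, GS4T and GA3T, 2, 1 and 3 in distal GS4M2, GA3M2 and GA3T, 2 for IL1 at 72 h and 9 between cell types. Knockout contrasts taken from 12 libraries gave 2 in proximal GS4T and 1 in distal GS4M2. IL17A at 72 h gave 2 without both libraries that stand apart, which were picked by their Hox values.

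Leaving out a library moved counts over 3 to 8 in GWTM2, 7 to 10 in GS4M2, 5 to 12 in GA3M2, 10 to 12 over goblet genotypes, 1 to 5 in GWTT, 2 to 6 in GS4T, 3 to 5 in GA3T, 6 to 9 over stromal genotypes, 0 to 1 and 0 to 2 for the GS4M2 and GS4T segment differences, 0 to 2, 0 to 4 and 0 to 3 in proximal GS4M2, GA3M2 and GS4T, 0 to 1, 0 to 1, 3 to 4 and 0 to 2 in distal GS4M2, GA3M2, GS4T and GA3T, 0 to 2 and 0 to 3 for IL1 and IL17A at 72 h, 7 to 9 and 8 to 9 for stroma against goblet cells, and 0 to 6 between cell types.

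The groups compared share only 2 replicate numbers, and the labels do not say what a number marks. Deviations of same-numbered libraries correlated at 0.197 to 0.534 between segments, -0.139 to 0.343 between genotypes and -0.147 to 0.801 in organoids. With the replicate number as a block, 1 gene was called in proximal GS4M2, 3 in proximal GA3M2, 2 in proximal GS4T and 0 for IL1 at 72 h, Hoxd10 in GA3T segments was lost (adjusted p = 0.0798), and the other counts stayed within 1.5 times of those reported. The block turned the sign, none of it called, of Hoxd11 (-0.18), Hoxa13 (-0.15) and Hoxb13 (-0.17) for IL1 at 12 h, and of Hoxd13 (-0.15), Hoxd11 (-0.32), Hoxd10 (-0.73), Hoxa13 (-0.18) and Hoxb13 (-0.0071) for IL17A at 12 h.

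Other changes of sign were in values that were not called. Hoxa13 in the GS4T segment difference lay at -0.24 with edgeR, -0.22 with DESeq2, -1.13 without the low-Gli1 libraries and -1.16 without the GWTT library too. Hoxb13 in proximal GS4M2 lay at -0.14 with edgeR and -0.12 with DESeq2, Hoxd13 in distal GS4M2 at -0.023 and -0.022, Hoxd13 with IL1 at 72 h at -0.019 with edgeR, and Hoxb4 in the GA3M2 segment difference at 0.33 with a pseudocount of 1. Leaving out a library moved Hoxb13 over -0.50 to 1.43 in the GS4M2 and Hoxb7 over -3.72 to 0.21 and Hoxa6 over -0.13 to 3.17 in the GA3M2 segment difference, and Hoxa13 over -1.13 to 1.87 in that of GS4T. In knockouts it moved Hoxb13 over -0.86 to 1.15 (proximal GS4M2), Hoxa6 over -3.23 to 0.20 (proximal GA3M2), Hoxa13 over -2.17 to 0.81 (proximal GS4T), Hoxd13 over -0.85 to 2.17 (distal GS4M2), and Hoxa13 over -0.16 to 0.17 and Hoxb7 over -4.45 to 0.13 (distal GA3M2). In organoids it moved Hoxa13 over -0.15 to 0.49 and Hoxb13 over -0.30 to 1.34 (IL1, 12 h), Hoxd10 over -0.27 to 2.15, Hoxa13 over -0.14 to 0.49 and Hoxb13 over -0.098 to 1.54 (IL17A, 12 h), Hoxd11 over -0.39 to 2.80 and Hoxd13 over -0.88 to 2.50 (IL1, 72 h), and Hoxb13 over -0.67 to 1.32 and Hoxd13 over -3.34 to 0.030 (IL17A, 72 h).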
